A study of Mus musculus with 22 samples.

Results

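Constitutive heterozygosity for *Otx2* was examined in the choroid plexus of the fourth ventricle (4V ChP). Its members are the 4 pools of the constitutive model whose labels read Otx2 (+/-) or WT, of 22 samples in the whole series, with 2 pools for each genotype. The groups were formed by these labels alone. The other samples belong to a conditional model, or to another constitutive genotype, Otx2 (+/AA), which is used here only where a difference between genotypes was tested.

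The pools labelled Otx2+/- came from mice with 1 *Otx2* allele replaced by a GFP knock-in, called Otx2+/GFP in the study's methods, and the control pools came from wildtype littermates. All were on the B6D2 strain. The methods give an age of 3 months, and 4V ChP pooled from 4 Otx2+/GFP mice and 5 wildtype littermates, in duplicate. The allele is lost in every cell that uses the gene and from the start of life, so an effect in adult ChP cannot be told apart from an effect during development, and the GFP insertion itself was carried by every heterozygous mouse. The methods describe a mixture of sexes, but the Y-linked genes *Ddx3y*, *Eif2s3y*, *Kdm5d* and *Uty* had 0 counts in all 4 pools.

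The ChP is a sheet of epithelial cells over a vascular stroma. It secretes the cerebrospinal fluid (CSF), forms the barrier between blood and CSF, and releases carrier proteins and growth factors into the ventricles. OTX2 is a homeodomain transcription factor needed for the formation of the ChP, and it remains expressed in the adult epithelium. The comparison asks which genes of adult 4V ChP differ in mice that had a single functional *Otx2* allele throughout life.

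*Otx2* itself was the first gene to be examined, because it checks the labels. Its most counted transcript, Otx2-201, lies at chr14:48657679-48665106 of GRCm38, on the minus strand. Normalized counts, which are counts scaled to a common library size, were 6853 and 5786 in the wildtype pools and 19633 and 16819 in the pools labelled Otx2+/-. The count was therefore higher in both pools labelled as heterozygous, by 1.53 on the log2 scale (SE 0.14, adjusted p = 0.0011), which is 2.88-fold. The count over the whole transcript goes against the direction that a lost allele would give, so groups are named by their labels throughout, and every direction below is that of the labels. Exons were not counted apart.

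The 8 annotated *Otx2* transcripts did not move together. With every transcript as its own feature, 3.55% of 50860 transcripts passed an adjusted p of 0.05 (1.79% higher and 1.76% lower), and 7 of the 8 *Otx2* transcripts were among those that were higher. Otx2-201 had 6834 and 5767 normalized counts in wildtype against 19672 and 16888 in the pools labelled Otx2+/- (log2 fold change 1.54, adjusted p = 8.1e-05). Otx2-202, which starts further upstream, was higher by 1.24 on the log2 scale (adjusted p = 0.00038). Otx2-203, which ends within the exon at chr14:48661299-48661450, was higher by only 0.67 (adjusted p = 0.0243), and without wildtype pool 2 it gave 0.53 and did not pass (adjusted p = 0.11).

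Otx2-206 was the exception. It had 1238 and 1040 normalized counts in wildtype, against 908 and 678 in the pools labelled Otx2+/-, so that its pools were lower and did not overlap. The difference was -0.52 on the log2 scale (SE 0.15, adjusted p = 0.0952). This noncoding transcript is the only annotated *Otx2* transcript that lacks the exon at chr14:48662444-48662659, which is 216 bases long and holds the first 97 coding bases. It holds the exon at chr14:48661299-48661450, with 152 bases that are all coding in Otx2-201, and 411 bases of the last exon, at chr14:48658916-48659326.

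The remainder of the Otx2-201 count, after the count of Otx2-206 was subtracted, was 5596 and 4726 in wildtype, against 18764 and 16210 in the pools labelled Otx2+/-. Otx2-206 shares the 152-base exon and the 411 bases of the last exon with Otx2-201, and has 174 bases of its own at chr14:48661759-48661932, so that the subtraction is exact only where reads of the shared stretches were counted on both transcripts. Otx2-201 alone holds 492 bases at the 3′ end of the gene, at chr14:48657679-48658170, and a first exon of 128 bases, at chr14:48664979-48665106. The files do not divide a transcript's count among these stretches, and which of them carried the higher count was not tested.

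**Figure D1:**
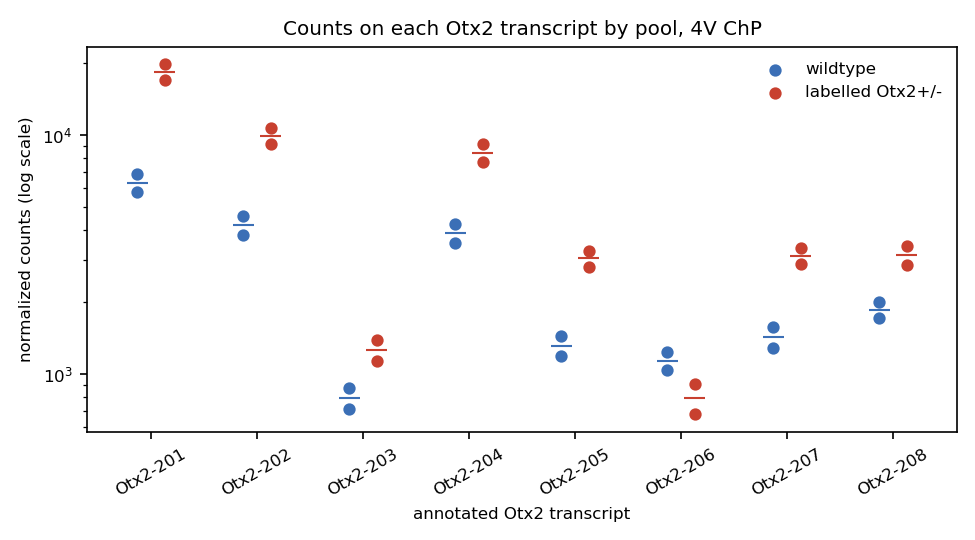
Normalized counts (log scale) on each of the 8 annotated *Otx2* transcripts, with 1 point per pool and a bar at the mean of the 2 pools, for wildtype and for the pools labelled Otx2+/-. Otx2-206 is the only transcript with lower points in the pools labelled Otx2+/-, at 908 and 678 against 1238 and 1040.

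Of 14561 genes tested, 514 passed an adjusted p of 0.05, or 3.53%, with 260 higher (1.79%) and 254 lower (1.74%) in the pools labelled Otx2+/-. Calls were evenly divided by direction, and the median log2 fold change over all genes was -0.0007. Below, a difference given as a plain number is a log2 fold change, and a gene passed where its adjusted p by edgeR's quasi-likelihood test was under 0.05. Differences over 2-fold were found in 140 of the higher and 121 of the lower genes, and over 4-fold in 45 and 35. Nearly all were protein-coding, at 258 of 260 and 251 of 254. A total of 23 called genes shared exons on the same strand with another called gene and were not measured independently, among them 9 members of the *Ugt1a* locus, whose log2 fold changes lay between 1.03 and 1.13. Counting each such cluster once leaves 499 calls. Pools of the genotypes did not overlap for 49.2% of all genes tested, so a lack of overlap between pools says little alone.

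**Figure D2:**
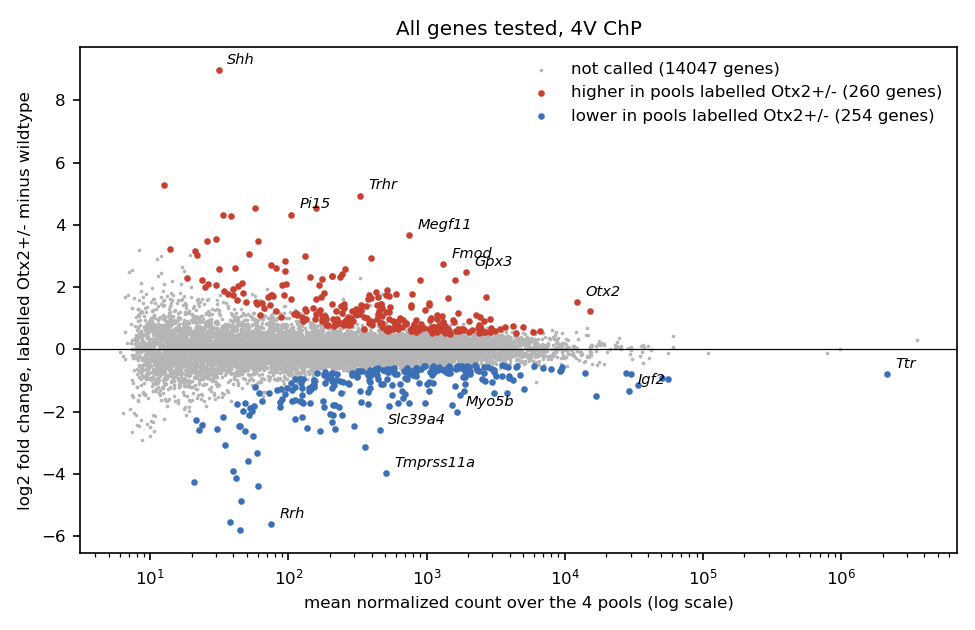
Log2 fold change (pools labelled Otx2+/- minus wildtype) against the mean normalized count over the 4 pools (log scale) for all 14561 genes tested, with 260 called higher and 254 called lower in colour. The largest differences lie among genes of low and middle counts, while the most abundant called genes, such as *Ttr* and *Igf2*, are lower.

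Total counts were between 36934922 and 42182219 in the 4 pools. Mitochondrial transcripts held 22.4% to 24.5% of the counts on chosen transcripts in wildtype, against 27.7% to 28.1% in the pools labelled Otx2+/-, and *Ttr* held 14.2% to 14.4% against 7.64% to 9.42%. All 10 epithelial markers were tested, of which *Otx2* was higher and *Ttr*, *Folr1* and *Prlr* were lower. The summed level of all 10 was 191114 to 194507 CPM, a count scaled to the library total, in wildtype. It was 124982 to 139186 CPM in the pools labelled Otx2+/-. *Ttr* alone held 141822 and 143654 CPM of this sum in wildtype, against 76381 and 94228 CPM. *Enpp2*, *Clic6*, *Sostdc1*, *Kl*, *Kcnj13* and *Aqp1* gave -0.12, 0.05, -0.09, -0.27, -0.54 and -0.60, and none passed. None of the 8 markers of fibroblasts and stroma was at 0, 2 of them (*Col1a2* and *Col3a1*) were higher, and their sum was 809 to 837 CPM in wildtype, against 1103 to 1158 CPM in the pools labelled Otx2+/-. Markers of ependyma, endothelium, mural cells, neurons and oligodendrocytes gave no call, and the 6 lymphocyte markers summed to at most 0.697 CPM in any pool. Pigment cell markers summed to 84.1 CPM in pool 1 labelled Otx2+/- and to 5.71 to 13.5 CPM in the other pools. In pooled tissue, fewer cells of a type and less RNA per cell cannot be told apart.

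The largest fitted increase among the genes named was of *Shh*, the sonic hedgehog ligand, which patterns the ventral nervous system and sustains cerebellar progenitors in development. It had 0 counts in both wildtype pools and 76 and 53 counts in the pools labelled Otx2+/-, or 73.3 and 51.7 normalized counts. Against a floor of 3 counts in each wildtype pool, *Shh* was at least 20.2-fold higher (adjusted p = 0.0019). The gene is at chr5:28456815-28467256, and its transcript overlaps exons of 2 genes on the other strand.

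Of 15 hedgehog pathway genes tested, 3 were higher and none was lower. *Hhip*, a membrane protein that binds hedgehog ligands and limits their signal, had 63.4 and 69.8 normalized counts in wildtype, against 348 and 341 in the pools labelled Otx2+/- (log2 fold change 2.37, SE 0.17, adjusted p = 0.00042). *Cdon*, a coreceptor for the ligand, was higher by 0.80 (adjusted p = 0.012). *Ptch1*, which encodes the receptor and is itself a transcriptional target of the pathway, gave -0.06 (SE 0.14, adjusted p = 0.882), and *Smo*, the signal transducer, gave 0.06. Named after its values were seen, the target and effector gene *Gli1* had 17.8 and 11.8 against 31.8 and 28.3 normalized counts, and did not pass (adjusted p = 0.227). The median of the pathway was 0.06, beside -0.0007 over all genes.

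*Trhr*, the receptor for thyrotropin-releasing hormone, showed the largest rise among the named genes with counts in every pool. It had 16.8 and 24.7 normalized counts in wildtype, against 540 and 735 in the pools labelled Otx2+/-, a 30.7-fold difference (log2 fold change 4.94, SE 0.26, adjusted p = 0.00016). The lowest pool labelled Otx2+/- was thus far above the highest wildtype pool. The gene lies at chr15:44196135-44235912.

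Among 29 receptors for hormones, transmitters and peptides and their first effectors, 6 were higher and 1 was lower. The share called was 24.1%, beside 3.53% of all genes. *Edn3*, an endothelin ligand, rose from 466 and 372 to 1281 and 988 (log2 fold change 1.43, adjusted p = 0.0027), and *Ednrb*, a receptor for endothelins, rose by 0.98 (adjusted p = 0.0068). The 2 adenosine receptors that passed moved in opposite directions. *Adora1*, coupled to inhibition of cyclic AMP synthesis, had 212 and 182 against 451 and 500 normalized counts (log2 fold change 1.27, adjusted p = 0.0035). *Adora2b*, coupled to its stimulation, had 159 and 208 against 56.9 and 77.1 (log2 fold change -1.45, adjusted p = 0.0122). *Adcy5*, an adenylyl cyclase, and *Arrb1*, an arrestin that ends receptor signalling, were higher by 0.72 and 0.94. *Htr2c*, the serotonin receptor for which the ChP is a main site, was the most abundant of the group and gave -0.31 (SE 0.13, adjusted p = 0.255).

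Growth factor genes of the insulin-like growth factor axis were lower where they were most abundant. Of 18 genes of this axis tested, 22.2% were called, beside 3.53% of all genes. *Igf2*, a growth factor that the ChP secretes into CSF, had 41409 and 42601 normalized counts in wildtype, against 17051 and 16626 in the pools labelled Otx2+/-, 0.401 of the wildtype level (log2 fold change -1.32, SE 0.12, adjusted p = 0.0011). *Igfbp2*, a secreted binding protein for these factors, had 48210 and 45654 against 20885 and 21534 (log2 fold change -1.15, adjusted p = 0.0019). Both genes were lower in each pool labelled Otx2+/- by more than the small spread within genotypes. *Ins2*, next to *Igf2* on chromosome 7, fell by 1.08 on the log2 scale at a far lower level, with 159 and 177 against 83.9 and 75.1 (adjusted p = 0.0194). *Igf1* was the only member of the 18 tested that was higher, from 298 and 260 to 732 and 499 (log2 fold change 1.14, adjusted p = 0.0174), and with counts summed over transcripts it did not pass (adjusted p = 0.0674). The receptor *Igf2r* and the binding proteins *Igfbp4*, *Igfbp5* and *Igfbp7* gave 0.28, 0.09, 0.17 and -0.02, and none of these passed. Of 20 imprinted growth genes tested, *Igf2* alone was called, and *Plagl1*, *Mest*, *Cdkn1c*, *Peg3* and *Gnas* lay between -0.21 and 0.27.

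In the pathway of bone morphogenetic proteins (BMP) and transforming growth factor beta, 3 of 42 genes were higher and 2 were lower. This is 11.9% called, beside 3.53% of all genes. *Bmp6*, a ligand, fell from 2705 and 2379 to 906 and 957 (log2 fold change -1.45, SE 0.12, adjusted p = 0.00064). *Bmp7*, another ligand of the pathway, gave 0.02 and did not pass. The BMP antagonist *Chrdl1* rose from 5.94 and 11.8 to 54.0 and 53.7 (log2 fold change 2.60, adjusted p = 0.0117). *Bmp2* fell by 1.40 on the log2 scale (adjusted p = 0.034), but did not pass when pool 1 or pool 2 labelled Otx2+/- or wildtype pool 2 was left out, where its adjusted p was 0.0527 to 0.069. *Tgfb3* and *Fstl1* were higher by 0.90 and 0.61, and did not pass without pool 2 labelled Otx2+/- and without wildtype pool 1 (0.0562 for *Fstl1*).

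Of 37 Wnt genes tested, 1 was higher and 2 were lower, 8.11% in all beside 3.53% of all genes. The calls were of secreted Wnt inhibitors and of *Lgr5*, an R-spondin receptor. *Sfrp5* had 327 and 368 against 103 and 160 normalized counts (log2 fold change -1.40, adjusted p = 0.0103), and *Sfrp1*, of higher level, had 4611 and 3463 against 2395 and 1522 (log2 fold change -1.04, adjusted p = 0.0379), which did not pass with counts summed over transcripts (adjusted p = 0.0674). *Lgr5* had 4.29 to 7.92 counts in wildtype, against 29.3 to 31.8 in the pools labelled Otx2+/-, and its adjusted p of 0.0397 was lost without either pool labelled Otx2+/- or wildtype pool 2 (0.0756 to 0.179). The coreceptors *Lrp5* and *Lrp6* and the receptors *Fzd4*, *Fzd6* and *Fzd7* lay between -0.24 and 0.29, and none passed.

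Fibroblast growth factors moved in both directions, with 3 of 22 genes higher and 1 lower, 18.2% called beside 3.53% of all genes. *Fgf1* had 154 and 195 against 578 and 593 normalized counts (log2 fold change 1.74, SE 0.16, adjusted p = 0.0011), while *Fgf18* had 312 and 276 against 135 and 134 (-1.13, adjusted p = 0.007). *Flrt1*, a membrane protein that interacts with the receptors, was higher by 1.24. *Egf*, the epidermal growth factor, was the only call among 11 genes of its family, with 66.3 and 82.7 against 16.4 and 21.5 (log2 fold change -1.97, adjusted p = 0.0125).

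Of 40 guidance and neurotrophic genes, 5 were higher and none was lower, 12.5% called beside 3.53% of all genes. Since 1.74% of all genes were called lower, a lack of lower calls among 40 genes says little. *Ndnf*, a secreted neurotrophic factor, had 89.1 and 93.4 normalized counts in wildtype, against 744 and 652 in the pools labelled Otx2+/- (log2 fold change 2.93, SE 0.16, adjusted p = 0.00016). *Nrp2*, a receptor for class 3 semaphorins, rose from 653 and 737 to 2114 and 2222 (log2 fold change 1.64, adjusted p = 0.00042), and *Sema3e*, a semaphorin of that class, from 21.8 and 34.3 to 161 and 163 (2.53, adjusted p = 0.0016). *Sorcs2*, a sortilin-family receptor for proneurotrophins, was higher by 1.18. *Sema5a* was higher by 0.88, and did not pass without pool 1 labelled Otx2+/- (adjusted p = 0.0618). *Nrp1* gave 0.01 and *Ntrk2*, the receptor for brain-derived neurotrophic factor, gave 0.15.

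Transcripts of secreted carriers fell together among the most abundant genes of the tissue. Of 17 carriers, chaperones and their receptors, 7 were lower and 1 was higher, 47.1% in all beside 3.53% of all genes, although their median of -0.0041 was that of a list in which the other members hardly moved. *Ttr*, which carries thyroxine and retinol-binding protein, had 2802970 and 2654520 normalized counts in wildtype, against 1460350 and 1706940 in the pools labelled Otx2+/-, and fell by 42.0% (log2 fold change -0.79, SE 0.17, adjusted p = 0.0397). Its pools did not overlap, but without wildtype pool 1 the difference of -0.74 did not pass (adjusted p = 0.0648). *Apoe*, an apolipoprotein, had 79668 and 67119 against 35785 and 40681 (log2 fold change -0.94, adjusted p = 0.0106), and *Clu*, an extracellular chaperone, had 38975 and 37146 against 20870 and 23160 (-0.79, adjusted p = 0.0126).

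*Stra6*, the membrane receptor for retinol-binding protein, fell from 1334 and 1666 to 553 and 626 (log2 fold change -1.35, adjusted p = 0.0018). *Prlr*, the prolactin receptor, fell from 28732 and 20883 to 11330 and 6181, with a wide spread in both genotypes (log2 fold change -1.50, SE 0.27, adjusted p = 0.0204). *Gpx3*, a secreted glutathione peroxidase, moved the other way, from 665 and 501 to 3003 and 3516, 5.58-fold (log2 fold change 2.48, SE 0.16, adjusted p = 0.0004). *Enpp2*, *Trf*, *Ptgds* and *Cp*, other carriers or enzymes of the secretion, gave -0.12, 0.01, 0.01 and 0.31, and none passed.

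Of 21 genes of thyroid hormone and retinoid handling, 2 were higher and 2 were lower. *Slc16a10*, a transporter of aromatic amino acids and thyroid hormone, rose from 7.92 and 15.0 to 74.3 and 66.3 (log2 fold change 2.61, adjusted p = 0.0074). *Lrat*, which esterifies retinol for storage, had 45.5 and 33.3 normalized counts in wildtype, against 3.86 and 0 in the pools labelled Otx2+/- (adjusted p = 0.0174), and did not pass with counts summed over transcripts (0.0502). *Rdh10*, a retinol dehydrogenase, fell by 0.72 (adjusted p = 0.0203), and did not pass without wildtype pool 1 (0.0504). The thyroid hormone transporter *Slco1c1* gave 0.47 and did not pass.

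Of 22 genes of fluid secretion tested, 18.2% were called, beside 3.53% of all genes. *Slc12a2*, the sodium, potassium and chloride cotransporter, gave 0.03, and *Atp1b1*, a beta subunit of the sodium pump, gave 0.26, and neither passed. *Aqp1*, the apical water channel of the epithelium, had 7064 and 7240 against 4100 and 5314, with no overlap, but did not pass (log2 fold change -0.60, SE 0.14, adjusted p = 0.0629). *Aqp4*, a water channel better known from astrocytes and ependyma, had 235 and 237 against 686 and 892 (log2 fold change 1.74, adjusted p = 0.0011). *Fxyd1*, a regulator of the sodium pump, fell by 0.77 on the log2 scale (adjusted p = 0.0216).

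Of the same list of 22 genes, 3 passed upwards and 1 downwards. *Atp1b3*, another beta subunit of the pump, was higher by 0.64 and did not pass without wildtype pool 1 (0.117). *Mlc1*, a membrane protein of astrocytes and ependyma, rose from 179 and 246 to 551 and 802 (log2 fold change 1.67, adjusted p = 0.0048). Of 5 markers of astrocytes and Bergmann glia, *Slc1a3*, a glutamate transporter, was called, from 152 and 221 to 506 and 630 (log2 fold change 1.61, adjusted p = 0.0042). *Gfap*, *Slc1a2* and *Gdf10* gave 0.69, 0.78 and 1.16 and *Aldh1l1* gave -0.28, and none passed. The sum of the 5 markers was 150 to 151 CPM in wildtype, against 137 and 209 CPM in the pools labelled Otx2+/-. Most of it was *Aldh1l1*, with 118 and 114 CPM in wildtype, against 82.9 and 114 CPM. The part of these markers in these results was not tested.

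Bicarbonate transport gave 1 call in each direction among 17 genes, 11.8% called beside 3.53% of all genes. *Slc26a7*, an anion exchanger, had 670 and 424 against 266 and 202 normalized counts (log2 fold change -1.23, adjusted p = 0.0269), and did not pass with summed transcripts (0.064). *Slc4a5*, *Slc4a10*, *Car2*, *Car12* and *Car14* lay between -0.22 and 0.15.

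Carriers of amino acids, nucleosides and vitamins were mostly called downwards, with 6 of 47 lower and 1 higher, 14.9% beside 3.53% of all genes. *Slc35f1*, a carrier of unsettled substrate, had 505 and 512 against 118 and 66.3 normalized counts (log2 fold change -2.46, SE 0.24, adjusted p = 0.0013), *Slc7a10*, a carrier of neutral amino acids, had 2677 and 2520 against 1115 and 1281 (-1.12, adjusted p = 0.0019), and *Slc29a4*, a transporter of monoamines, fell by 0.76. The other 3 that were lower belong to folate transport, for which the ChP is the main route into the brain. *Folr1*, the folate receptor of the epithelium, had 12546 and 10567 against 7441 and 7074 (log2 fold change -0.67, adjusted p = 0.0287), *Slc46a1* gave -0.73 (adjusted p = 0.035) and *Slc19a1* gave -0.60 (adjusted p = 0.0428). None of these 3 passed in every case, since *Folr1* was lost without wildtype pool 1 (adjusted p = 0.111), and *Slc46a1* and *Slc19a1* without pool 1 labelled Otx2+/- (0.104 and 0.136).

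*Slc39a4*, a zinc importer, was the largest change in metal transport. It had 734 and 839 normalized counts in wildtype, against 97.4 and 165 in the pools labelled Otx2+/-, 0.167 of the wildtype level (log2 fold change -2.58, SE 0.23, adjusted p = 0.00081). *Slc41a2*, a magnesium transporter, fell by 0.80. Of the 28 genes tested, 7.14% were called, beside 3.53% of all genes, at a median of -0.0088. None was higher, which says little, since 1.79% of all genes were called higher. *Trf*, *Slc31a1*, *Atp7a* and *Steap2*, of iron and copper transport, gave 0.01, -0.27, -0.43 and 0.46, and none passed.

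Genes of the extracellular matrix were mostly called upwards. Among 43 proteoglycans, glycoproteins and matrix enzymes, 9 were higher and 3 were lower (27.9% called, beside 3.53% of all genes). Their median was 0.25. *Fmod*, a small proteoglycan that binds collagen, rose from 411 and 277 to 2474 and 2095, 6.63-fold (log2 fold change 2.73, SE 0.19, adjusted p = 0.00042). *Pi15*, a secreted peptidase inhibitor, had 7.92 and 11.8 against 209 and 188 (log2 fold change 4.33, adjusted p = 0.00039). *Layn*, a hyaluronan receptor, and *Sulf2*, an extracellular heparan sulfatase, were higher by 1.91 and 1.73. *Sparc*, a collagen-binding glycoprotein, was lower, with 11446 and 11264 against 7319 and 6723 (log2 fold change -0.69, adjusted p = 0.0165), and *Sulf1*, the other sulfatase, fell by 0.62 and did not pass without wildtype pool 2.

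Collagens were called in both directions, with 5 of 35 higher and 2 lower. *Col1a2*, a chain of the fibrillar collagen of connective tissue, had 1537 and 1383 against 3200 and 3014 normalized counts (log2 fold change 1.09, SE 0.12, adjusted p = 0.0019), and *Col3a1* was higher by 0.82. *Col11a1* and *Col22a1*, of low level, were higher by 2.60 and 3.16. *Col18a1*, a collagen of basement membranes, was higher by 0.64, from 1414 and 1381 to 2188 and 2170 (adjusted p = 0.0151). *Col4a3* and *Col4a4*, chains of 1 network of basement membrane collagen, fell together, *Col4a3* from 909 and 836 to 438 and 370 (-1.11, adjusted p = 0.0034) and *Col4a4* from 269 and 269 to 74.3 and 95.6 (-1.66, adjusted p = 0.0023). The more widespread chains *Col4a1* and *Col4a2* gave 0.16 and 0.25, and neither passed. Beside the stromal collagens stand the 8 markers of fibroblasts and stroma, of which *Dcn* and *Lum* were 0.51 and 0.65 higher without passing (adjusted p = 0.0877 and 0.0601) and *Col1a1* gave 0.08. The markers *Dpep1*, *Pdgfra* and *Igfbp6* gave -0.56, -0.22 and 0.03, and none passed. The summed level of the 8 markers, given above, was higher in both pools labelled Otx2+/-, and its part in the matrix results was not tested.

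Of 34 adhesion molecules, 6 were higher and 1 was lower, 20.6% called beside 3.53% of all genes. *Megf11*, a transmembrane protein with epidermal growth factor repeats that arranges cells by homotypic contact in the retina, had 60.4 and 160 normalized counts in wildtype, against 1528 and 1243 in the pools labelled Otx2+/- (log2 fold change 3.66, SE 0.34, adjusted p = 0.0011). *Cadm1*, an immunoglobulin-like adhesion molecule, rose from 339 and 291 to 1709 and 1271 (2.24, adjusted p = 0.00049). *Cdh1*, epithelial cadherin, and *Cdh11*, a mesenchymal cadherin, were higher by 1.33 and 0.90. *Elfn1*, a leucine-rich repeat protein of synapses, fell from 259 and 326 to 47.3 and 48.8 (-2.60, adjusted p = 0.00049). Of the 28 integrins and laminins, *Itga9* and *Lamc3* were higher by 0.82 and 0.66 and *Itgb6* fell by 1.00 on the log2 scale.

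The tight junction, which seals the barrier between blood and CSF, gave 2 calls among 24 genes. This is 8.33% called, beside 3.53% of all genes. *Jam3* was higher by 0.81 (adjusted p = 0.0188) and *Cldn9* fell by 0.65 on the log2 scale at the threshold (adjusted p = 0.0498), and did not pass without either pool labelled Otx2+/- or without wildtype pool 1 (0.0538 to 0.141). *Cldn1*, *Cldn2*, *Tjp1*, *Ocln*, *Patj* and *Cgnl1* lay between -0.10 and 0.37 and did not pass.

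Of membrane traffic genes, 7 of 28 were lower and 3 were higher (35.7% called, beside 3.53% of all genes), at a median of 0.03. *Myo5b*, a motor of apical recycling in polarized epithelia, had 2651 and 2696 against 720 and 604 normalized counts, 0.248 of the wildtype level (log2 fold change -2.01, SE 0.13, adjusted p = 0.00039). *Pitpnm1*, a phosphatidylinositol transfer protein, fell from 984 and 1027 to 328 and 353 (-1.56), and *Scg5*, a chaperone of prohormone convertase 2, fell from 1586 and 1398 to 488 and 411 (-1.73, both with adjusted p = 0.00049). *Myrip*, which links Rab27 to myosins, *Sytl5*, a Rab27 effector, and *Tbc1d2*, a Rab7 regulator, were lower with log2 fold changes of -0.87, -2.61 and -0.73. The rises were of *Sorl1* and *Sorcs2*, both of the sortilin family of sorting receptors, by 1.49 and 1.18, and of *Rufy4*, by 1.27. Of the paralogues of *Myo5b*, *Myo5c* fell by 0.58 on the log2 scale (adjusted p = 0.0273), which did not pass without wildtype pool 1 (0.0865), and *Myo5a* gave 0.01 and did not pass.

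Genes of oxidative stress were called in both directions, 2 of 35 upwards and 3 downwards, 14.3% beside 3.53% of all genes. Besides *Gpx3*, *Ddo*, a D-aspartate oxidase that yields hydrogen peroxide, rose from 804 and 799 to 1621 and 1536 (log2 fold change 0.98, adjusted p = 0.0023). *Nqo1*, a quinone reductase, fell from 1385 and 1437 to 896 and 826 (-0.71, adjusted p = 0.0114), and *Gpx8*, a peroxidase of the endoplasmic reticulum, fell by 0.62. *Sod1* fell by 0.60 on the log2 scale (adjusted p = 0.0416), and leaving out any single pool ended the call. *Cat*, *Sod2*, *Sod3* and *Prdx5* lay between -0.29 and 0.13 and did not pass.

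At the 3.53% called of all genes, lists of 8 to 36 immune genes would hold few calls or none. None of 8 genes of MHC class II and none of 16 of MHC class I presentation passed, at medians of 0.0043 and -0.25, and none of 13 chemokines and cytokines passed. Of 36 interferon-inducible genes, *Ifit2* alone was called, from 118 and 119 to 271 and 230 (log2 fold change 1.08, adjusted p = 0.0119), which is 2.78% beside 3.53% of all genes, with a list median of 0.33. Of 18 complement genes, 11.1% were called. *Clu* was lower and *Cd55*, a regulator that protects host cells, was higher by 0.63, and *Cd55* did not pass without wildtype pool 1. None of 19 immediate early genes passed. Of the 6 macrophage markers tested, *Mrc1* was higher, and the sum over all 7 was 51.2 to 62.1 CPM in wildtype, against 66.7 to 78.0 CPM in the pools labelled Otx2+/-.

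Of 27 genes in the list of homeobox and patterning factors, 5 were higher, the targeted gene *Otx2* among them. This is 18.5% called, beside 3.53% of all genes. None of the 27 was lower, which says little, since 1.74% of all genes were called lower. The homeobox gene *Sebox*, which was not in that list, fell and is described below. *Zic4*, a zinc finger factor of the dorsal midline and cerebellum, rose from 320 and 292 to 834 and 730 (log2 fold change 1.35, SE 0.14, adjusted p = 0.0015). *Hopx*, an atypical homeodomain protein, rose from 967 and 872 to 1669 and 1729 (0.89, adjusted p = 0.0046). *Lmx1b* and *Pbx3* were higher by 1.14 and 0.81, and did not pass without pool 1 labelled Otx2+/-, where they gave 0.93 and 0.70. *Zic1*, *Lmx1a* and *Msx1*, which mark hindbrain or midline identity, gave 0.47, 0.36 and -0.04 and did not pass.

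OTX2 is also a regulator of photoreceptors and of the retinal pigment epithelium, and 13 genes of that list were tested. The share called was 15.4%, beside 3.53% of all genes. Only *Tyrp1*, of melanin synthesis, was higher, with 4.95 and 4.29 normalized counts in wildtype, against 45.3 and 32.2 in the pools labelled Otx2+/- (log2 fold change 3.03, adjusted p = 0.0114), and it did not pass without pool 1 (adjusted p = 0.0831). *Dct*, of the same pathway, was at 73.6 CPM in pool 1 labelled Otx2+/- and at 3.82 CPM in pool 2, beside 9.35 and 12.8 CPM in wildtype. *Rdh5* fell by 0.65 on the log2 scale at the threshold, and shares exons with *Bloc1s1*.

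Most of the genes with the largest falls were of low level, with few counts left in the pools labelled Otx2+/-, but *Tmprss11a* and *Slc16a8* were not. *Tmprss11a*, a transmembrane serine protease, had the smallest adjusted p of all those named, with 909 and 999 normalized counts in wildtype, against 59.8 and 62.4 in the pools labelled Otx2+/-, and fell by 93.6% (log2 fold change -3.96, SE 0.15, adjusted p = 3.1e-05). *Rrh*, peropsin, an opsin of the retinal pigment epithelium, had 159 and 135 against 0.965 and 4.88 (-5.60, adjusted p = 0.00049), and *Sebox*, a homeobox gene, had 95.0 and 81.6 against 2.89 and 2.93 (-4.87, adjusted p = 0.00064). *Slc16a8*, a lactate transporter known from the retinal pigment epithelium, had 606 and 682 against 45.3 and 102 (-3.12, adjusted p = 0.0012), and *Slc24a1*, a sodium, calcium and potassium exchanger of rods, had 84.1 and 131 against 14.5 and 6.83 (-3.32, adjusted p = 0.0035). These retinal genes were named for the size of their change, were not all in the list of such genes, and so say nothing on that list.

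For 3 genes named, a genotype held only 1 to 3 counts, and the ratio is given with its exact 95% interval, which covers counting error only. *Sptlc3*, a subunit of serine palmitoyltransferase, which starts sphingolipid synthesis, had 126 and 48 counts in wildtype, against 2 and 1 in the pools labelled Otx2+/-, a ratio of 61.6 (20.7 to 302), and its wildtype pools differed by more than 2-fold from each other. *Chrnb4*, a nicotinic receptor subunit, had 90 and 55 counts against 3 and 0, a ratio of 51.3 (17.2 to 252). *Nat8f2*, of the N-acetyltransferase family, had 1 and 0 counts in wildtype, against 20 and 31 in the pools labelled Otx2+/-, a ratio of 48.0 (8.24 to 1934). *Cpn1*, a carboxypeptidase subunit, *Pon1*, a paraoxonase, and *Baiap2l2*, a membrane-bending protein, were lower with log2 fold changes of -4.13, -3.57 and -3.91 and with 4 to 9 counts in each pool labelled Otx2+/-.

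**Figure D3:**
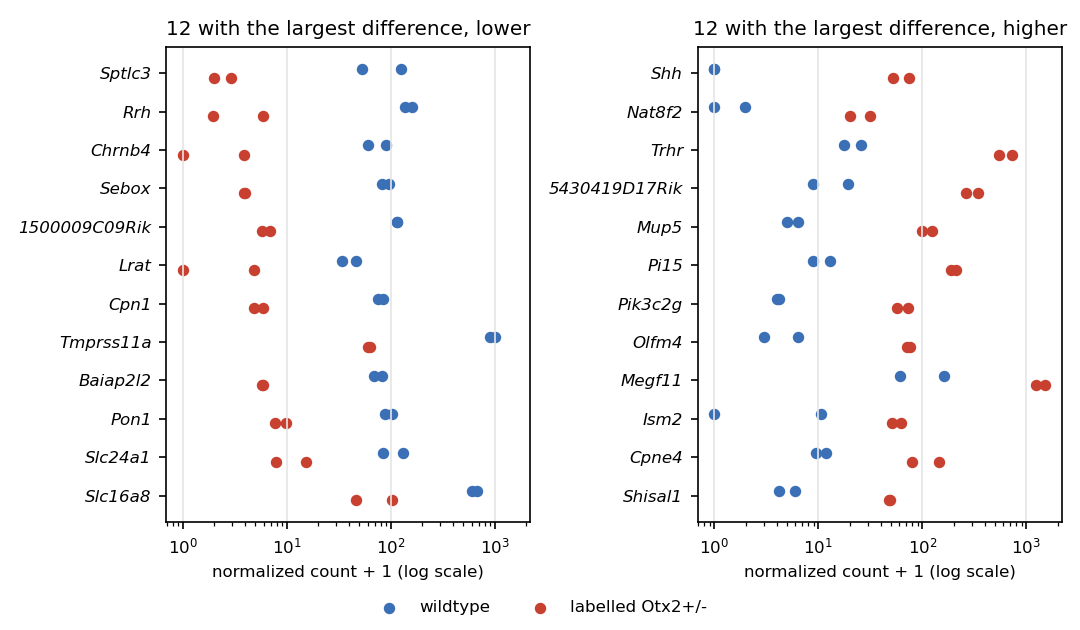
Normalized counts plus 1 (log scale) in each pool for the 12 called genes with the largest difference in each direction, with 2 points per genotype. The genotypes are separated for all 24 genes because only genes without overlap were eligible. The wildtype pools of *Sptlc3*, *Megf11* and *Ism2* are far from each other, and *Shh* is at 0 in both wildtype pools.

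Among the 12 largest rises, *Mup5*, of the major urinary proteins, had 3.96 and 5.37 against 97.4 and 122 normalized counts (log2 fold change 4.53, adjusted p = 0.00064), and members of this family are nearly identical in sequence. *Olfm4*, an olfactomedin, *Pik3c2g*, a phosphoinositide kinase, and *Cpne4*, a copine, were higher by 4.28, 4.32 and 3.49. *Ism2* had 0 and 9.66 against 60.8 and 49.8, and did not pass with DESeq2 (adjusted p = 0.462). Among the most abundant genes called upwards were *Mdfic*, an inhibitor of MyoD-family factors, from 3012 and 3292 to 5341 and 5217 (log2 fold change 0.74, adjusted p = 0.0104), and *Matn2*, a matrix protein, by 0.70. Among those called downwards were *Bsg*, the chaperone of lactate transporters, from 72365 and 60476 to 33215 and 36769 (-0.92, adjusted p = 0.0108), and *Ctsd*, a lysosomal protease, from 35295 and 34580 to 19319 and 22012 (-0.76, adjusted p = 0.0168), which shares its exons with the readthrough gene *Gm49369*.

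**Figure D4:**
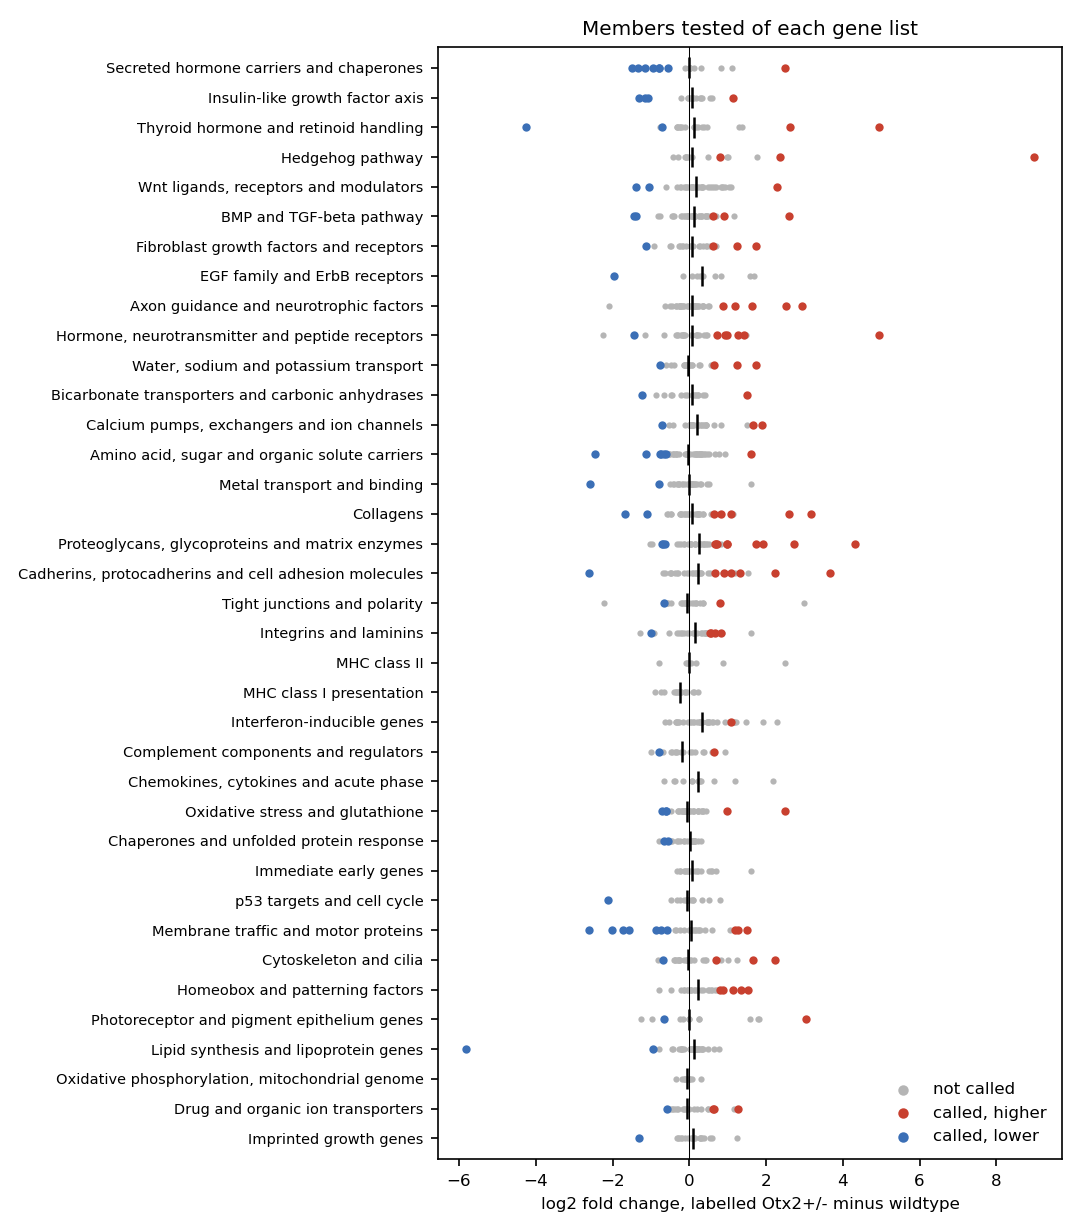
Log2 fold change (pools labelled Otx2+/- minus wildtype) of each tested member of the gene lists, 1 point per gene, with called genes in colour and a black bar at the list's median. Calls stand at the edges of the lists while the medians stay near 0, and hormone carriers were called mostly downwards. Several lists, such as those of guidance factors and metal transport, hold calls in 1 direction only, which says little in lists of this size.

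Genes near *Otx2* on chromosome 14 were examined by distance. Within 2 Mb, 2 of 18 genes tested were called (11.1%), and within 5 Mb, 2 of 61 (3.28%). Of 151 genes tested within 10 Mb of *Otx2*, 3 were called (1.99%, beside 3.53% of all genes), which were *Lgals3* (log2 fold change -1.65), *Armh4* (0.66) and *Myh7* (-0.64). *Armh4* was lost without pool 1 labelled Otx2+/- and without wildtype pool 1, and so was *Myh7*.

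Promoters were searched for TAATCC, the core that OTX-type homeodomains bind, and for GGATTA, the same letters on the other strand, in the 250 bases before the transcript start (RefSeq, GRCm38). Of 8657 tested genes with a RefSeq start within 100 bases of the counted transcript, 5.21% held the motif. The share was 8.39% of 143 genes called higher and 4.58% of 153 called lower, and these shares were not tested against each other. A match is a description of letters and not a binding site. Shown with the motif in capitals, 5′ to 3′, are the promoters of *Pon1* (chr6:5193947-5194196, minus strand), with motifs at -176 and -68 from the start, and of *Apoe* (chr7:19699189-19699438, minus strand), with a motif at -80. They are the named genes of largest or most abundant change with a match and no annotated exon in the window, and both were lower.
Pon1: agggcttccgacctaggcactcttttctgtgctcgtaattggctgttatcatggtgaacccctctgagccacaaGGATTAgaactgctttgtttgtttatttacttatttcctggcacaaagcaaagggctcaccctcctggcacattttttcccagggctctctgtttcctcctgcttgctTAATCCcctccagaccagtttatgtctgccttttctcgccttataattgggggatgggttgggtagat
Apoe: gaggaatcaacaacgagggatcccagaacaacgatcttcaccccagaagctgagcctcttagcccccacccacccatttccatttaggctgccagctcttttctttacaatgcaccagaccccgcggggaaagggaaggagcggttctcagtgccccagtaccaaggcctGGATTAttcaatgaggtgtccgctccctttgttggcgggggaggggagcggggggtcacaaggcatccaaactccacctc

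The other mutant genotype of the run, labelled Otx2+/AA, was sequenced in 2 pools beside the others and shares the wildtype pools as controls. In a fit of all 6 pools, 18 of 14842 genes (0.121%) passed for Otx2+/AA against wildtype, 10 higher (0.0674%) and 8 lower (0.0539%). For the pools labelled Otx2+/- against Otx2+/AA, 333 passed (2.24%), with 148 higher (0.997%) and 185 lower (1.25%). *Otx2* had 6593 and 6894 normalized counts in the Otx2+/AA pools, on this scale beside 6983 and 5919 in wildtype, against 20018 and 17210 in the pools labelled Otx2+/-. The pools labelled Otx2+/- were thus also above Otx2+/AA, by 1.46 on the log2 scale (SE 0.14, adjusted p = 0.00053).

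Several of the largest changes differed between these mutants as well. *Trhr* was at 35.6 and 73.6 in Otx2+/AA, and the pools labelled Otx2+/- were higher by 3.59 (adjusted p = 0.00031). *Shh* was at 2.74 and 3.03 in Otx2+/AA, 4.42 lower on the log2 scale than in the pools labelled Otx2+/- (adjusted p = 0.0026). *Ndnf* (2.80, adjusted p = 3.5e-05), *Gpx3* (1.99), *Fmod* (2.50) and *Megf11* (2.65) were likewise higher in the pools labelled Otx2+/- than in Otx2+/AA, and *Myo5b* (-1.76, adjusted p = 0.00016) and *Bmp6* (-1.11) were lower.

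Intermediate levels in Otx2+/AA were not limited to 1 set of genes. *Trhr* (1.36), *Megf11* (1.01) and *Bmp6* (-0.34) lay between the other genotypes in Otx2+/AA, and did not pass against wildtype. The median of Otx2+/AA against wildtype was 0.41 over the 260 genes called higher and -0.32 over the 254 called lower. These genes were called against the same wildtype pools, so the medians lean that way by selection. *Tmprss11a* had 483 and 403 in Otx2+/AA, beside 926 and 1022 in wildtype, against 61.0 and 63.9 in the pools labelled Otx2+/-, and passed against wildtype (-1.13, adjusted p = 0.0141) and between the mutants (-2.83, adjusted p = 3.5e-05). *Rrh* passed likewise (-2.65 and -2.95). *Igf2* had 29783 and 30432 in Otx2+/AA, between 42196 and 43582 in wildtype, against 17385 and 17013 in the pools labelled Otx2+/-. Against wildtype, Otx2+/AA gave -0.51 for *Igf2* and did not pass (adjusted p = 0.148), whereas the mutants differed by -0.81 (adjusted p = 0.0056). For *Ttr* the difference between the mutants of -0.43 did not pass (adjusted p = 0.151). For *Cadm1*, Otx2+/AA was higher than wildtype by 1.65 (adjusted p = 0.0106), and the difference between the mutants of 0.59 did not pass (adjusted p = 0.0812).

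**Figure D5:**
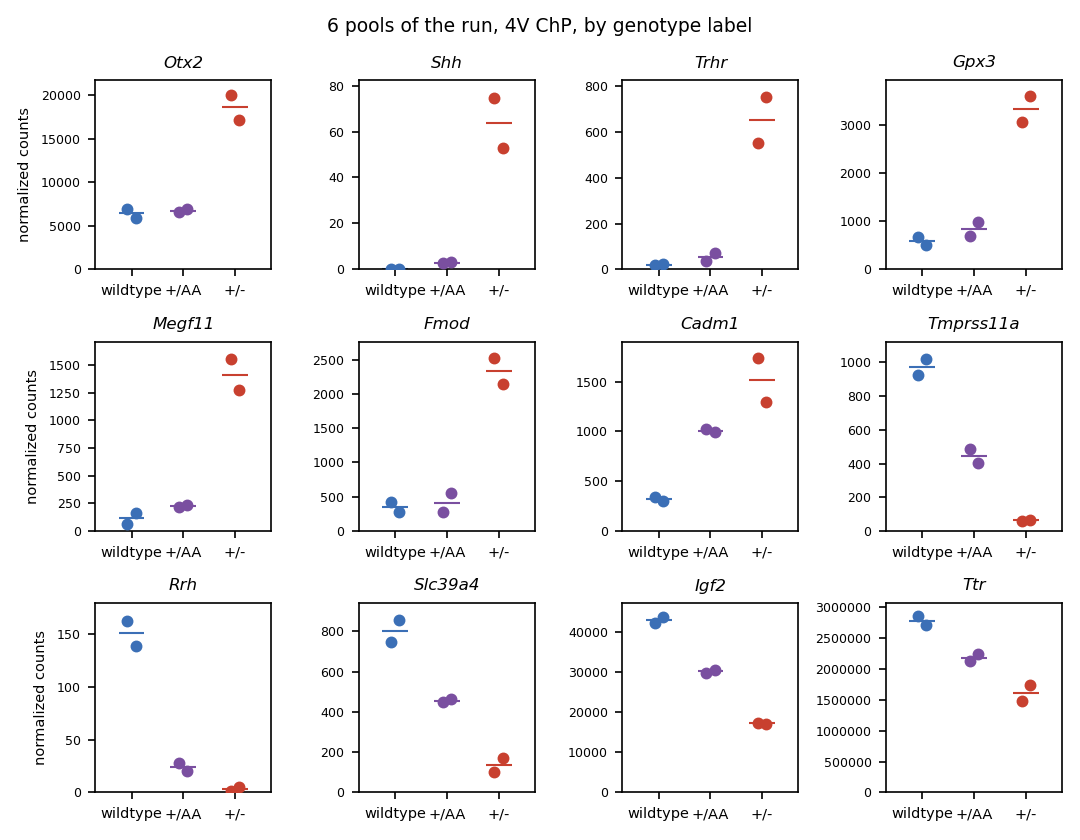
Normalized counts in the 6 pools of the run for 12 genes, 2 points per genotype with a bar at their mean, for wildtype, Otx2+/AA and the pools labelled Otx2+/-, each axis from 0. For *Otx2* and *Fmod* the points of Otx2+/AA overlap those of wildtype. For *Shh*, *Trhr*, *Gpx3* and *Megf11* they lie between the other genotypes but nearer to wildtype. *Cadm1*, *Tmprss11a*, *Rrh*, *Slc39a4*, *Igf2* and *Ttr* also have intermediate points in Otx2+/AA.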

How the data were processed

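RNA of 4V ChP pools was sequenced in 50-base reads. The labels describe ribosomal RNA depletion and a strand-specific kit, while the study's methods describe PolyA+ selection. The authors deposited counts, which are whole numbers of reads per Ensembl transcript without normalization. The submitters' processing notes name Bowtie 0.12.9, SAMtools, HTSeq 0.5.3, DESeq 1.8.3 and mm10, and the strand setting of the counting is not given in the sources used here. Of 95533 transcripts, 82807 matched GENCODE M21 of GRCm38, with 89.1% to 89.8% of the counts of the 4 pools. Reads are shared between transcripts, so 1 transcript stood for each gene, that of the highest summed count in the 22 files. A gene that shares exons with another can include its reads.

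The 4 pools were fitted with edgeR 4.0.16 in R 4.3.3 (filterByExpr, TMM, quasi-likelihood test), and p values were adjusted by Benjamini-Hochberg across the 14561 genes that passed the filter, with a threshold of 0.05. The Otx2+/AA contrasts used all 6 pools. Alternatives used DESeq2 1.42.0. Figures were drawn with matplotlib. The common biological coefficient of variation was 0.128. Normalized counts are scaled to the mean TMM library size, and floors and intervals cover counting error only. With 2 pools a genotype an exact permutation test cannot go below p = 0.333. The fit was tested on simulated data.

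Named genes are *Otx2*, genes of the lists (those called and the 6 most abundant not called), the 12 largest changes with a mean above 10 normalized counts and no overlap, the 12 most abundant called genes in each direction, and called genes within 10 Mb of *Otx2*. The lists, the rule and the comparison were chosen with earlier results of these data known, so that the lists' shares of calls are not independent support. The labels do not say whether the pools held separate mice, and p values then measure the spread between pools. Some genes are not reported here.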

Additional observations from a re-analysis of the deposited data

How the results depend on the processing

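With 2 pools a genotype, small differences could be missed, and every direction follows the labels. The number of genes called was 514, and 463 to 668 with another normalization, filter or tool, and 387 with counts summed over transcripts, of which 360 were among the 514. With total counts, 60.3% of 531 calls were higher, beside 50.6%. With every transcript as a feature 1804 were called. Leaving out a pool gave 402 to 880 calls. The lone pool of a genotype was then assumed to vary like the others. Without wildtype pool 1 there were 788, without wildtype pool 2 there were 880, and without pool 2 labelled Otx2+/- there were 831.

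The pools of the genotypes share only a replicate number. With the number as a replicate block, 2522 genes were called, with all 514 among them, and 658 genes between the pools labelled Otx2+/- and Otx2+/AA, beside 333. Deviations of same-numbered pools correlated at 0.352 between wildtype and the pools labelled Otx2+/-, across 14561 genes, which are not independent replicates, and at 0.068 between wildtype and Otx2+/AA and 0.0814 between the pools labelled Otx2+/- and Otx2+/AA. Otx2-206 gave -0.53 under the block (adjusted p = 5.1e-05). It then passed, and the block ended no call of a named gene or *Otx2* transcript.

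*Otx2* gave 1.40 to 1.66 without single pools. Otx2-203 gave 0.51 to 0.81 and Otx2-206 gave -0.75 to -0.33, with Otx2-206 passing without pool 1 labelled Otx2+/- and without wildtype pool 2. Of 177 other named genes, 120 passed under every alternative and none reversed. Summing transcripts ended 35 calls, leaving out pool 1 labelled Otx2+/- ended 33, and leaving out wildtype pool 1 ended 26. The causes were not tested.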

Other observations

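Several gene groups of the epithelium and stroma were not described above. Of 28 cytoskeletal and ciliary genes, 3 were called higher and 1 lower, 14.3% beside 3.53% of all genes. *Sncg*, gamma-synuclein, had 776 and 355 normalized counts in wildtype, against 2608 and 2705 in the pools labelled Otx2+/- (log2 fold change 2.23, SE 0.29, adjusted p = 0.0046), and *Vim*, vimentin, rose from 1822 and 1850 to 2894 and 3055 (0.70, adjusted p = 0.0114). *Krt18*, a keratin of simple epithelia, fell from 3902 and 3723 to 2220 and 2562 (-0.67, adjusted p = 0.0204). The ciliary genes *Foxj1*, *Dnah9*, *Cfap65* and *Tekt1* lay between -0.36 and -0.06, and none passed. Of 25 chaperones, *Cryab*, a small heat shock protein, fell from 1619 and 1591 to 1048 and 987 (-0.66, adjusted p = 0.0144), while *Hspa5*, *Hsp90b1* and *Calr* gave 0.07, 0.12 and -0.30.

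Of 16 genes of p53 targets and the cell cycle, *Cdk1* alone was called, from 82.2 and 86.9 to 17.4 and 21.5 normalized counts (log2 fold change -2.12, adjusted p = 0.0058). Of 23 drug and organic ion transporters, 3 were higher and 1 was lower, 17.4% called beside 3.53% of all genes. *Abca9*, a lipid transporter, rose from 958 and 980 to 1571 and 1471 (0.65, adjusted p = 0.0159). *Abca8a* and *Abca8b*, of the same subfamily, were higher by 0.62 and 1.26, and *Abca7* fell by 0.58 on the log2 scale. *Abca8a* did not pass without wildtype pool 2 (adjusted p = 0.0724), *Abca8b* without pool 1 labelled Otx2+/- (0.0686), and *Abca7* without wildtype pool 1 (0.128). Of 35 genes of lipid synthesis and lipoproteins, *Sptlc3* and *Apoe*, given above, were lower and none was higher. This is 5.71% called, beside 3.53% of all genes. *Scd1*, *Scd2*, *Fads1* and *Vldlr* gave 0.32, 0.18, 0.13 and -0.26, and none passed. None of 10 transcripts of the mitochondrial genome passed, at a median of -0.06.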
